A study of Mus musculus with 12 samples.

Results

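The 31 genes described here encode proteins that bring long-chain fatty acids into the heart cell, activate them, carry them into mitochondria and oxidise them there or in peroxisomes. They were taken by symbol from a list of enzymes of fatty acid uptake and oxidation, and all 31 were found among the 39210 genes of the deposited table and passed the filter on low counts. Expression had been measured by strand-specific mRNA sequencing of frozen ventricular tissue from C57BL/6 mice, with 3 libraries in each of 4 groups. Male and female hypoxia mice lived in a chamber whose oxygen was stepped down by 1% a day for 14 days to 7%, where it stayed for 2 weeks. Male and female normoxia mice breathed 20.9% oxygen for 4 weeks. No transgene, deletion or drug is named for any group, ages are not given, and the labels do not separate left from right ventricle. Whether each library was a different animal is not stated, so p-values refer to the variation among these samples only, some or all of which may be technical.

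The adult heart makes most of its ATP from long-chain fatty acids. Lipases free them at the vessel wall, membrane proteins and a cytosolic carrier bring them in, and ligases activate them to acyl-CoA. The carnitine shuttle then moves the acyl groups into the mitochondrial matrix, where each round of beta-oxidation consists of an oxidation, a hydration, a second oxidation and a cleavage that releases acetyl-CoA. Auxiliary enzymes prepare unsaturated chains, electron transfer flavoprotein passes the electrons to the respiratory chain, and peroxisomes shorten very long chains. Many of these genes are textbook targets of the nuclear receptor PPAR-alpha.

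Library totals ran from 14915800 to 19397900 estimated counts. Scaling factors (TMM, which corrects library size for composition) were 1.01 to 1.18 in male hypoxia and 0.900 to 0.948 in male normoxia libraries, and 0.975 to 1.11 in female hypoxia and 0.911 to 0.968 in female normoxia libraries. The tissue was ventricular by its labels. The list of ventricular cardiomyocyte markers holds general heart muscle genes such as Ttn and Mb, so its sum does not tell ventricle from atrium. That sum was 66287 to 83579 CPM (counts scaled to the TMM-corrected library size) in male hypoxia and 87011 to 94516 CPM in male normoxia libraries. In females it was 67753 to 94046 CPM in hypoxia and 86779 to 96574 CPM in normoxia. Male hypoxia libraries 2 and 3 stood apart by the atrial gene Myl7, at 57.9 and 54.1 CPM against at most 0.781 CPM in the other 10 libraries. The atrial markers together summed to 573 to 1777 CPM in male hypoxia and 173 to 231 CPM in male normoxia libraries, and to 258 to 1108 CPM in female hypoxia and 209 to 325 CPM in female normoxia libraries. In each hypoxia library most of that sum was Nppa, at 485, 1512 and 797 CPM in males and 183, 463 and 1046 CPM in females. The sum therefore says little about the other atrial markers. Female normoxia library 3 stood apart by its immediate early genes, summing to 1478 CPM against 235 to 422 CPM elsewhere. For the averaged comparison and for each sex, some results are also given without these libraries. Other values rest on all 12 libraries unless stated.

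The 31 genes spanned more than 3 orders of magnitude in abundance. Levels between genes were compared only on the deposited TPM values (transcript abundance that accounts for transcript length). Fabp3, the cytosolic fatty acid carrier of heart muscle, was the highest with a mean of 3076 TPM over the 12 libraries. Ech1, an auxiliary isomerase, followed with 1160 TPM, Hadhb and Hadha, the subunits of the trifunctional protein, with 855 and 571 TPM, and Lpl, the lipase that frees fatty acids from circulating triglyceride, with 665 TPM. Among the lowest were Slc27a1, a transport protein of the cell membrane, at 7.95 TPM, and the peroxisomal enzyme gene Ehhadh at 2.28 TPM. Of the carnitine palmitoyltransferases of the outer membrane, the muscle form Cpt1b reached 191, 195 and 144 TPM in male hypoxia and 185, 176 and 183 TPM in male normoxia libraries, whereas the liver form Cpt1a reached 7.63, 6.63 and 6.53 TPM in male hypoxia and 4.83, 7.54 and 5.46 TPM in male normoxia libraries. The muscle form was thus the more abundant of the pair in each of these libraries.

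**Figure D1:**
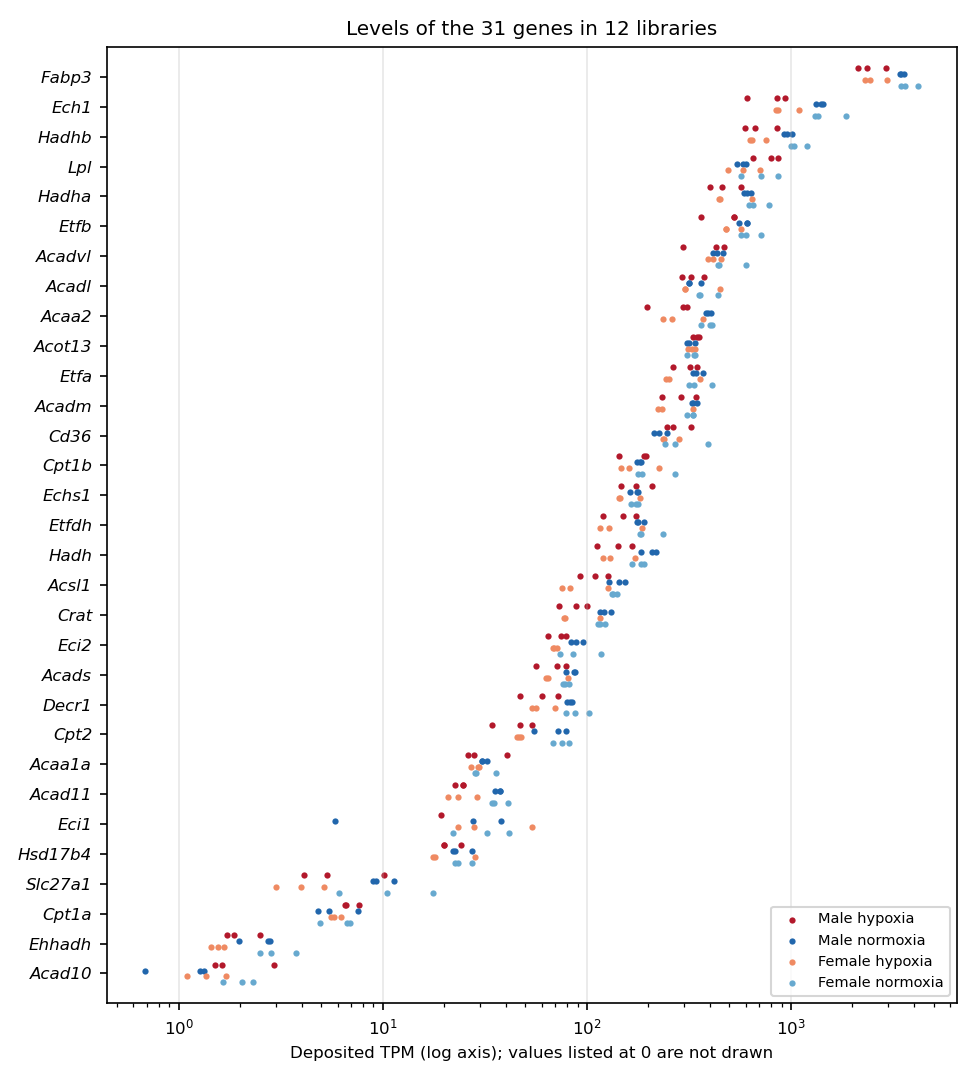
Deposited TPM of each of the 31 genes (rows, ordered by mean level) in each of the 12 libraries, on a log axis, with the 4 groups in separate colours. Fabp3 lies at the top and Acad10 at the bottom. The hypoxia points all lie left of the normoxia points of the same sex in 15 of 31 rows for males (3.44% of all genes) and 11 for females (3.85%). They all lie right of them in 2 rows, Lpl and Acad10, for males, a direction not counted over all genes. Values listed at 0 are not drawn.

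Averaged over the sexes, 26 of the 31 genes (83.9%) were lower in hypoxia and 0 were higher. Over all 13960 genes tested, 12.9% were lower and 15.0% were higher. The log2 fold change (hypoxia over normoxia) of the 31 genes had a median of -0.64, against -0.01 over all genes, and ran from -1.37 for Slc27a1 to -0.06 for Acad10. All 31 values were negative on this scale, but that of Acad10 turned positive when libraries were scaled by their totals alone, and those of Acad10, Cpt1a, Lpl and Acot13 did so when they were scaled to the ventricular markers. For the higher direction, 0 members passed at an unadjusted p under 0.05, by DESeq2 or by limma voom. In TMM-scaled CPM the 3 male hypoxia libraries lay below the 3 male normoxia libraries without overlap for 26 of the 31 genes (19.8% of all genes), the female ones for 22 (12.7%), and both for 21 (6.92%). On the deposited TPM scale, which carries no TMM correction, these counts were 15 in males (3.44% of all genes), 11 in females (3.85%) and 9 in both (0.903%). The mean TPM was lower in male hypoxia than in male normoxia libraries for 24 of the 31 genes and lower in female hypoxia than in female normoxia libraries for 30. The share of all genes with a lower mean TPM was not counted. The 7 with a higher mean TPM in male hypoxia were Cpt1a, Echs1, Cd36, Acad10, Lpl, Acaa1a and Acot13, and the 1 in female hypoxia was Eci1. In bulk tissue, fewer cells of a type and less RNA per cell cannot be told apart: 4 of 15 ventricular cardiomyocyte markers were lower in the averaged comparison and 0 were higher, while 10 of 14 endothelial, 9 of 12 fibroblast and 7 of 7 tested erythroid markers were higher, and the part of these shifts in the result was not tested. The fibroblast markers summed to 1483 to 2294 CPM in male hypoxia and 895 to 943 CPM in male normoxia libraries, and to 985 to 1924 CPM in female hypoxia and 779 to 1151 CPM in female normoxia libraries. The 4 markers that were lower were Pln, Myl2, Atp2a2 and Ckm, by log2 fold changes of -0.55, -0.37, -0.63 and -0.30.

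**Figure D2:**
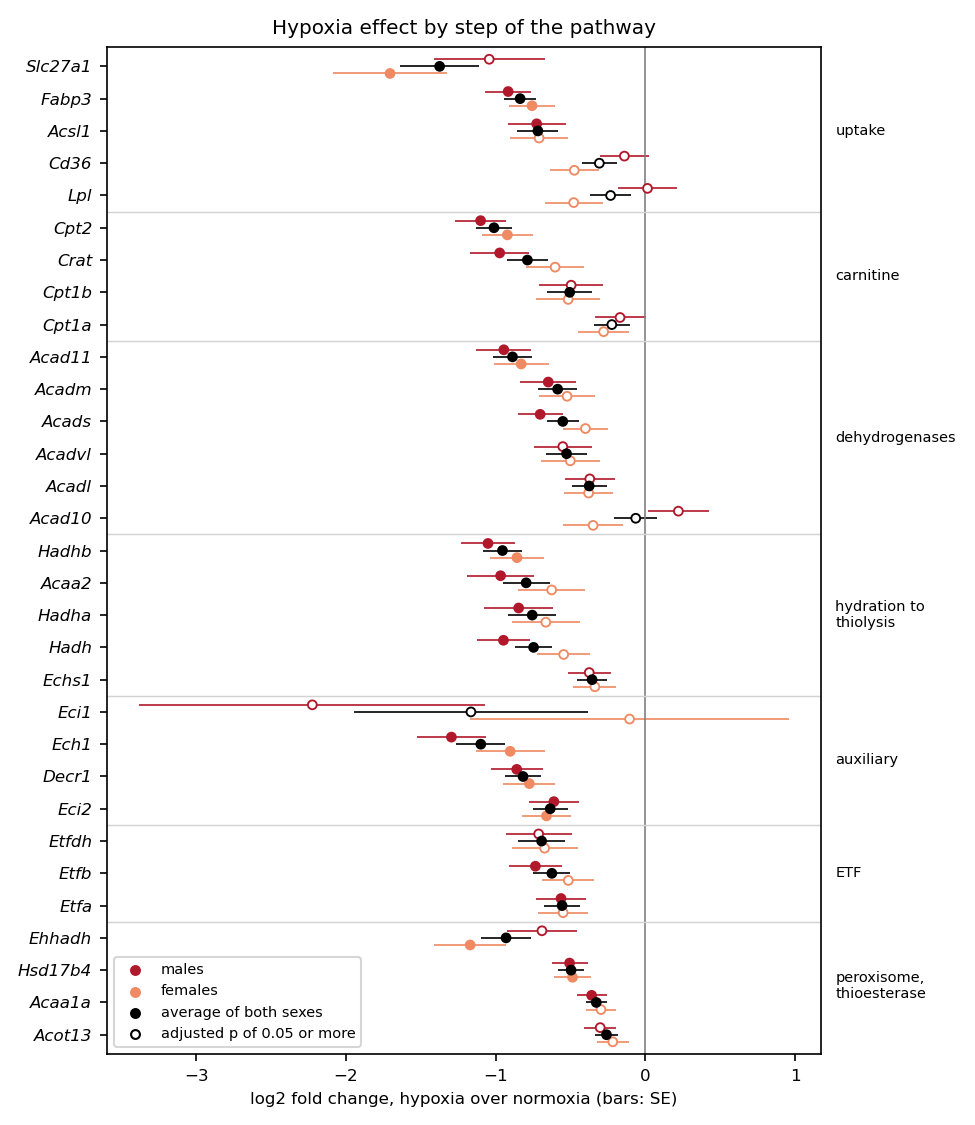
Log2 fold change of each of the 31 genes, hypoxia over normoxia, with one point each for males, females and the average of both, and with the standard error as a bar, grouped by step of the pathway. Filled points passed an adjusted p of 0.05; all 31 averaged values lie left of 0 with TMM scaling (27 of 31 with scaling to ventricular markers), and Slc27a1 lies farthest left among those that passed.

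Of the 5 genes of uptake and activation, 3 fell in the averaged comparison. Fabp3 (ENSMUSG00000028773) was at 2122, 2085 and 1754 CPM in male hypoxia and 3786, 3681 and 3779.9 CPM in male normoxia libraries. In females it was at 2708, 2079 and 1829.6 CPM in hypoxia and 3397, 3501 and 4278 CPM in normoxia. Every hypoxia library lay below every normoxia library in both sexes. The averaged log2 fold change was -0.84 ± 0.11 (SE, adjusted p = 0.000597). Slc27a1 (ENSMUSG00000031808), whose protein FATP1 promotes entry and activation of long-chain fatty acids, had the largest averaged change among the members that passed. It was at 21.4, 31.8 and 15.0 CPM in male hypoxia and 43.9, 51.7 and 45.0 CPM in male normoxia libraries, and at 21.1, 11.3 and 13.9 CPM in female hypoxia and 26.7, 44.7 and 79.2 CPM in female normoxia libraries. The female normoxia libraries were far apart, yet the lowest of them lay above the highest female hypoxia library, and the averaged change was -1.37 ± 0.27 (SE, adjusted p = 0.00399). On the deposited TPM scale the male groups overlapped, at 5.33, 10.1 and 4.10 TPM in hypoxia and 8.99, 11.4 and 9.24 TPM in normoxia libraries. Acsl1, the main long-chain acyl-CoA synthetase of heart, averaged 547 ± 66.0 CPM in male hypoxia and 905 ± 16.2 CPM in male normoxia libraries (SD, n = 3 each). In females the means were 512 ± 181 CPM in hypoxia and 837 ± 5.06 CPM in normoxia, and the averaged change was -0.72 ± 0.14 (SE, adjusted p = 0.00381).

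The other 2 uptake genes did not pass. Cd36, the membrane protein through which much of the heart's fatty acid enters, was at 999, 1030.0 and 980.1 CPM in male hypoxia and 1052, 1043 and 1220.2 CPM in male normoxia libraries, and at 990.4, 902 and 998 CPM in female hypoxia and 1076, 1164 and 1776 CPM in female normoxia libraries. Groups did not overlap in either sex, but the gaps were small and the averaged change was -0.31 ± 0.12 (SE, adjusted p = 0.0703). It passed by DESeq2 and without female normoxia library 1 (the adjusted p ran from 0.0347 to 0.905 over 24 alternatives). On the deposited TPM scale Cd36 was at 246, 324 and 265 TPM in male hypoxia and 213, 227 and 247 TPM in male normoxia libraries, which overlapped with a higher mean in hypoxia, so its direction in males depended on the scale. Lpl was at 4879, 4135 and 3604 CPM in male hypoxia and 4303, 4136 and 4049 CPM in male normoxia libraries, and at 4375, 2834 and 3104 CPM in female hypoxia and 3803, 4624 and 5938 CPM in female normoxia libraries. These groups overlapped in both sexes, and the averaged change was -0.23 ± 0.14 (SE, adjusted p = 0.228). On the deposited TPM scale the male hypoxia libraries had 802, 865 and 649.6 TPM of Lpl and the male normoxia libraries 580.3, 600.2 and 547 TPM, so the male hypoxia libraries all lay above the male normoxia libraries on that scale, while the TMM-scaled change in males was 0.01 ± 0.19 (log2, SE). Both genes are also expressed outside cardiomyocytes. The endothelial markers summed to 2018 to 2348 CPM in male hypoxia and 1289 to 1557 CPM in male normoxia libraries, and to 1997 to 2609 CPM in female hypoxia and 1459 to 1891 CPM in female normoxia libraries. The adipocyte markers summed to 193 to 326 CPM in male hypoxia and 265 to 339 CPM in male normoxia libraries, and to 233 to 340 CPM in female hypoxia and 311 to 461 CPM in female normoxia libraries. Most of that sum was Plin4. Male hypoxia libraries 2 and 3 stood apart by other adipocyte markers, with Cfd at 16.7 and 12.3 CPM against at most 1.04 CPM in the other 10 libraries, Adipoq at 2.19 and 1.68 CPM against at most 1.03 CPM, and Cidec at 2.05 and 1.78 CPM against at most 0.453 CPM. The mean log2 CPM of the list was 3.23 in male hypoxia and 2.45 in male normoxia libraries, and 2.11 in female hypoxia and 2.37 in female normoxia libraries. Of 11 adipocyte markers 6 were tested and 0 passed, and Plin1 was listed at 0 in all 12 libraries. The part of these cells in the levels of Cd36 and Lpl was not tested.

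Of the 4 genes of the carnitine shuttle, 3 fell. Cpt2 (ENSMUSG00000028607), the inner-membrane enzyme that rebuilds acyl-CoA in the matrix, had the smallest adjusted p of all 31 genes in the averaged comparison. It was at 137, 111 and 90.7 CPM in male hypoxia and 224, 266 and 236 CPM in male normoxia libraries. In females it was at 162, 120.1 and 109 CPM in hypoxia and 229, 248 and 265 CPM in normoxia. The lowest normoxia library lay well above the highest hypoxia library in each sex, and the averaged level was 0.496 times that of normoxia, a log2 fold change of -1.01 ± 0.12 (SE, adjusted p = 0.000466). Crat, which makes short-chain acylcarnitines and so buffers the acetyl-CoA pool, was at 362, 279 and 246 CPM in male hypoxia and 593, 570.3 and 577 CPM in male normoxia libraries, and at 474, 291 and 284 CPM in female hypoxia and 518, 506 and 569 CPM in female normoxia libraries. There was no overlap of CPM in either sex, and the averaged change was -0.79 ± 0.14 (SE, adjusted p = 0.00252). On the deposited TPM scale the female groups of Crat overlapped, at 116, 77.9 and 76.9 TPM in hypoxia and 113, 117 and 123 TPM in normoxia libraries.

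Cpt1b and Cpt1a encode enzymes of the first and rate-controlling step of the shuttle. Cpt1b averaged 504 ± 82.4 CPM in male hypoxia and 710.3 ± 59.9 CPM in male normoxia libraries, and 552 ± 138 CPM in female hypoxia and 788 ± 215 CPM in female normoxia libraries. It passed in the averaged comparison, at -0.51 ± 0.15 (SE, adjusted p = 0.0277), and in neither sex alone. Cpt1b was among the members that lost the call most often when 1 library was left out. Its mean deposited values were 177 TPM in male hypoxia and 181 TPM in male normoxia libraries. In females they were 179 TPM in hypoxia and 212 TPM in normoxia libraries, with overlap in both sexes. Cpt1a was at 48.9, 33.4 and 38.1 CPM in male hypoxia and 37.7, 54.7 and 42.6 CPM in male normoxia libraries, and at 37.8, 33.5 and 34.9 CPM in female hypoxia and 46.4, 46.9 and 35.5 CPM in female normoxia libraries. The groups overlapped in both sexes and the averaged change was -0.22 ± 0.12 (SE, adjusted p = 0.187).

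Of the 6 acyl-CoA dehydrogenase genes, which carry out the first oxidation of each round, 5 fell. Acad11, which acts on long and very long chains, fell most, with 116, 92.6 and 83.7 CPM in male hypoxia and 189, 181 and 192 CPM in male normoxia libraries, and 139, 96.7 and 84.3 CPM in female hypoxia and 173, 176 and 219 CPM in female normoxia libraries. The groups lay apart in both sexes and the averaged change was -0.89 ± 0.13 (SE, adjusted p = 0.00105). Acadm, the medium-chain enzyme, averaged 706 ± 107 CPM in male hypoxia and 1106 ± 67.7 CPM in male normoxia libraries, and 683 ± 208 CPM in female hypoxia and 981 ± 46.8 CPM in female normoxia libraries. The averaged change of Acadm was -0.59 ± 0.13 (SE, adjusted p = 0.00788). The short-chain enzyme Acads and the very long-chain enzyme Acadvl changed by similar amounts, -0.55 ± 0.11 (SE, adjusted p = 0.00397) and -0.53 ± 0.14 (SE, adjusted p = 0.0162). Acadl, the long-chain enzyme of rodents, changed least among the 5, at -0.37 ± 0.12 (SE, adjusted p = 0.0342). Its call was lost in 12 of 24 alternatives, among them 7 that left out a single library. The mean deposited values of Acadl were 330 TPM in male hypoxia and 331 TPM in male normoxia libraries. In females they were 352 TPM in hypoxia and 384 TPM in normoxia libraries, with overlap in both sexes.

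Acad10, an ill-characterised member of the family and the least abundant of the 31 genes, did not pass. It had 7.42, 8.15 and 6.37 CPM in male hypoxia and 4.78, 7.29 and 6.74 CPM in male normoxia libraries, and 5.74, 7.40 and 4.79 CPM in female hypoxia and 7.79, 6.96 and 8.08 CPM in female normoxia libraries. In CPM the male hypoxia libraries reached above the male normoxia ones while the female hypoxia libraries reached below the female normoxia ones, with overlap in both sexes. On the deposited TPM scale the male groups did not overlap, at 1.62, 2.94 and 1.51 TPM in hypoxia and 0.687, 1.27 and 1.33 TPM in normoxia libraries. The female groups overlapped on that scale too. The averaged change was -0.06 ± 0.14 (SE, adjusted p = 0.768) and the female effect minus the male effect was -0.57 ± 0.29 (SE, adjusted p = 0.733), the smallest adjusted p of that comparison among the 31 genes.

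All 5 genes of hydration, second oxidation and thiolysis fell in the averaged comparison. Hadhb (ENSMUSG00000059447), the thiolase subunit of the trifunctional protein, was at 1150.2, 1014 and 886 CPM in male hypoxia and 2278, 1978 and 2063 CPM in male normoxia libraries, and at 1457, 948 and 891 CPM in female hypoxia and 1862, 1874 and 2233 CPM in female normoxia libraries. No hypoxia library reached the normoxia range of its sex, and the averaged level was 0.516 times that of normoxia, a log2 fold change of -0.95 ± 0.13 (SE, adjusted p = 0.00073). Hadha, the subunit that carries the hydratase and dehydrogenase activities, was at 1073, 812 and 717 CPM in male hypoxia and 1588, 1526 and 1563 CPM in male normoxia libraries, and at 1409.5, 833 and 749 CPM in female hypoxia and 1396, 1481 and 1864 CPM in female normoxia libraries. Female hypoxia library 1 overlapped the female normoxia libraries for Hadha, and the averaged change was -0.76 ± 0.16 (SE, adjusted p = 0.00639). Hadh, the dehydrogenase for shorter chains, changed by -0.75 ± 0.13 (SE, adjusted p = 0.00212). Acaa2, the mitochondrial thiolase, averaged 479.7 ± 130.0 CPM in male hypoxia and 937 ± 17.0 CPM in male normoxia libraries and changed by -0.80 ± 0.16 (SE, adjusted p = 0.00439). Echs1, the short-chain hydratase, changed least among these 5, at -0.36 ± 0.10 (SE, adjusted p = 0.0238). Its deposited values overlapped in males, at 175, 208 and 147 TPM in hypoxia and 175, 178 and 162 TPM in normoxia libraries, with a higher mean in hypoxia.

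Hadha and Hadhb are neighbours that start in opposite directions from one short stretch of DNA. In RefSeq's annotation of GRCm38.p6 their starts lie 273 bases apart on chromosome 5, and the 300-base windows around the starts share 228 bases. Most of the stretch between the starts is shown because both subunit genes of one protein complex, each lower in the averaged comparison, have it upstream. It is printed on the strand of Hadhb, chr5:30155003-30155252 (+), ending at the base before the annotated Hadhb start, with the bases that also belong to the Hadha window in capitals.
Hadhb: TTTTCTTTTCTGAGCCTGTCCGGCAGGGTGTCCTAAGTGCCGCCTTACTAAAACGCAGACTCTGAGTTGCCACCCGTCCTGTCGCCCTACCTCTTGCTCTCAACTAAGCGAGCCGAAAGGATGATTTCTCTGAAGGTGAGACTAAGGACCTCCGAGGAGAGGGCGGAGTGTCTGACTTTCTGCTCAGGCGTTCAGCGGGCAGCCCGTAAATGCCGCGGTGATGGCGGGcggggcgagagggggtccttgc

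Among the 4 auxiliary enzymes that handle double bonds of unsaturated fatty acids, 3 fell. Ech1 (ENSMUSG00000053898), a dienoyl-CoA isomerase, was at 872, 586 and 529 CPM in male hypoxia and 1697, 1509 and 1670.3 CPM in male normoxia libraries, and at 1129, 747 and 684 CPM in female hypoxia and 1419, 1396 and 1970.4 CPM in female normoxia libraries. All 6 hypoxia libraries lay below all 6 normoxia libraries, and the averaged change was -1.10 ± 0.16 (SE, adjusted p = 0.00116). Decr1, the mitochondrial dienoyl-CoA reductase, averaged 228 ± 39.3 CPM in male hypoxia and 413 ± 6.26 CPM in male normoxia libraries, and 244 ± 53.8 CPM in female hypoxia and 417 ± 63.4 CPM in female normoxia libraries, a change of -0.82 ± 0.12 (SE, adjusted p = 0.00126). Eci2, an enoyl-CoA isomerase, changed by -0.64 ± 0.12 (SE, adjusted p = 0.00318).

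Eci1, the other enoyl-CoA isomerase, was erratic. Its rounded estimated counts were 0, 0 and 454 in male hypoxia and 149, 1036 and 682 in male normoxia libraries, and 531, 633 and 1189 in female hypoxia and 924, 779 and 531 in female normoxia libraries. A count of 0 allows up to 3 counts, or 0.199 and 0.143 CPM in male hypoxia libraries 1 and 2, a limit that covers counting error only. Both sexes overlapped and the fitted change was -1.16 ± 0.78 (SE, adjusted p = 0.287), with by far the largest error of the 31 genes. It passed as lower when male hypoxia library 3 was left out, which leaves male hypoxia libraries that are all listed at 0. Why 2 libraries are listed at 0 was not tested.

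All 3 genes of electron transfer fell. Etfa and Etfb encode the subunits of electron transfer flavoprotein, which collects electrons from the acyl-CoA dehydrogenases, and Etfdh the enzyme that hands them to ubiquinone. Etfb averaged 426 ± 98.7 CPM in male hypoxia and 708 ± 30.0 CPM in male normoxia libraries, and 482 ± 83.1 CPM in female hypoxia and 688 ± 91.5 CPM in female normoxia libraries. Etfdh was at 494, 444 and 359 CPM in male hypoxia and 766, 650.2 and 707 CPM in male normoxia libraries, and at 625, 393 and 328 CPM in female hypoxia and 650.1, 638 and 858 CPM in female normoxia libraries. For each of the 3 genes hypoxia lay below normoxia without overlap of CPM in both sexes. On the deposited TPM scale this held in both sexes for Etfb only. There Etfa reached 347 TPM in male hypoxia, above the lowest male normoxia value of 332 TPM, and 360 against 316 TPM in females. Etfdh lay apart in males on that scale and overlapped in females, at up to 186 TPM in hypoxia against 183 TPM in the lowest normoxia library. The averaged changes were -0.56 ± 0.12 (SE, adjusted p = 0.006) for Etfa, -0.62 ± 0.12 (SE, adjusted p = 0.00441) for Etfb and -0.69 ± 0.16 (SE, adjusted p = 0.0081) for Etfdh.

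The 3 peroxisomal genes and the thioesterase gene also fell with TMM scaling. Ehhadh (ENSMUSG00000022853), the bifunctional enzyme of the peroxisomal pathway, had 10.8, 6.34 and 6.73 CPM in male hypoxia and 10.4, 13.7 and 14.3 CPM in male normoxia libraries, and 7.28, 6.36 and 5.41 CPM in female hypoxia and 11.8, 13.0 and 18.1 CPM in female normoxia libraries. The groups overlapped in males through hypoxia library 1 and lay apart in females, where the change was -1.17 ± 0.24 (SE, adjusted p = 0.0226). Hsd17b4, the second bifunctional enzyme of peroxisomes, was at 75.3, 72.5 and 67.5 CPM in male hypoxia and 104, 102 and 100.3 CPM in male normoxia libraries. In females it was at 83.7, 63.6 and 58.0 CPM in hypoxia and 93.0, 95.3 and 99.1 CPM in normoxia, and the averaged change was -0.50 ± 0.09 (SE, adjusted p = 0.00228). Acaa1a, a peroxisomal thiolase with a near-identical copy (Acaa1b) that could share its reads, changed by -0.33 ± 0.07 (SE, adjusted p = 0.00654). Its call was lost with scaling by library totals alone or to the ventricular markers. Its deposited values were 26.2, 40.7 and 28.1 TPM in male hypoxia and 30.5, 32.3 and 30.7 TPM in male normoxia libraries, which overlapped with a higher mean in hypoxia. Acot13, a thioesterase that releases fatty acids from acyl-CoA, changed by -0.26 ± 0.08 (SE, adjusted p = 0.027) with TMM scaling and by 0.02 with scaling to the ventricular markers. Its deposited values were 347, 354 and 332 TPM in male hypoxia and 309, 315 and 337 TPM in male normoxia libraries, which overlapped with a higher mean in hypoxia.

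**Figure D3:**
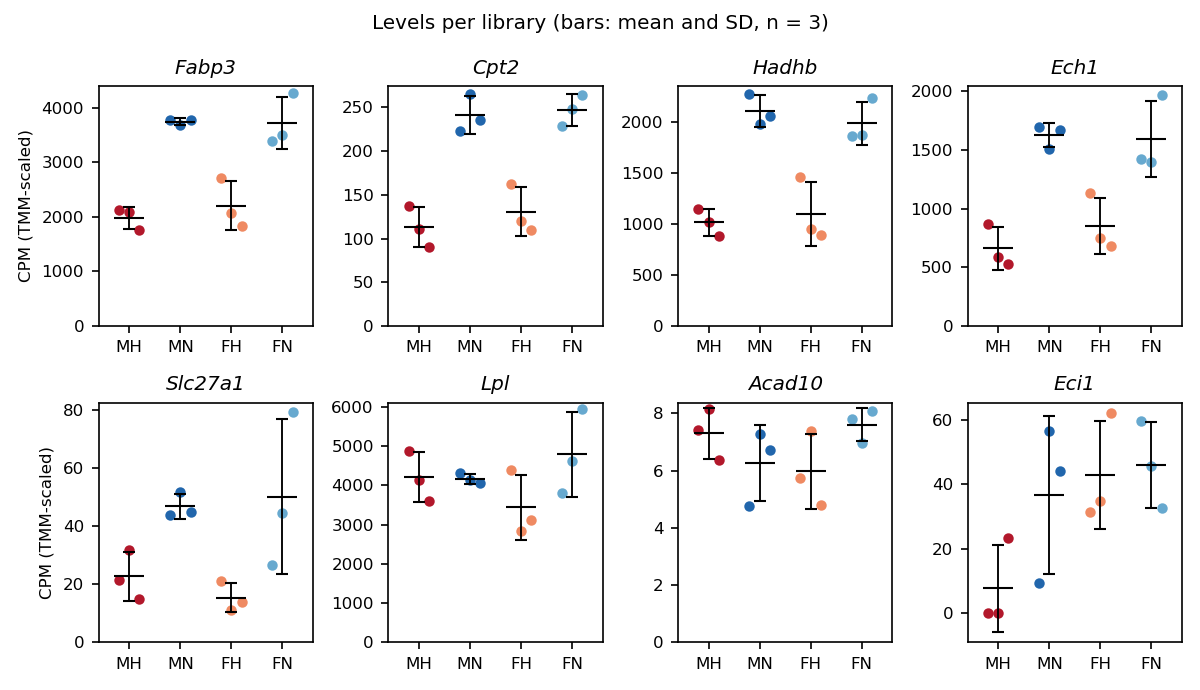
CPM in each library for 8 of the 31 genes, with the group mean and SD as bars (n = 3; MH, male hypoxia; MN, male normoxia; FH, female hypoxia; FN, female normoxia; linear axes). Fabp3, Cpt2, Hadhb, Ech1 and Slc27a1 are apart between hypoxia and normoxia of each sex, while Lpl, Acad10 and Eci1 overlap.

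The libraries of a group differed from one another in a way that ran across most of the 31 genes. Relative to the mean of the normoxia libraries of the same sex, the median log2 level of the 31 genes was -0.48, -0.67 and -0.91 in male hypoxia libraries 1, 2 and 3. In female hypoxia libraries 1, 2 and 3 it was -0.21, -0.71 and -0.82. Female hypoxia library 1 was thus the closest to normoxia, although all 31 genes lay below the normoxia mean in it. Within their groups male hypoxia library 1 was the highest for 26 of 31 genes, female hypoxia library 1 for 27 and female normoxia library 3 for 28, whereas male hypoxia library 3 was the lowest for 27 and female hypoxia library 3 for 24. The summed ventricular markers followed a similar order, at 83579, 70100 and 66287 CPM in male hypoxia libraries 1, 2 and 3 and 94046, 67753 and 68949 CPM in female hypoxia libraries 1, 2 and 3. Their part in the spread was not tested. Against these 6 values the normoxia libraries held 86779 to 96574 CPM. Female hypoxia library 1 lay within that range. In it 7 of the 31 genes (Cpt1a, Cpt1b, Acadl, Acadvl, Hadha, Echs1 and Lpl) lay within the female normoxia range of CPM and the other 24 below it. The share of all genes that lay below that range in this library was not counted, so the 24 cannot be set against it.

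**Figure D4:**
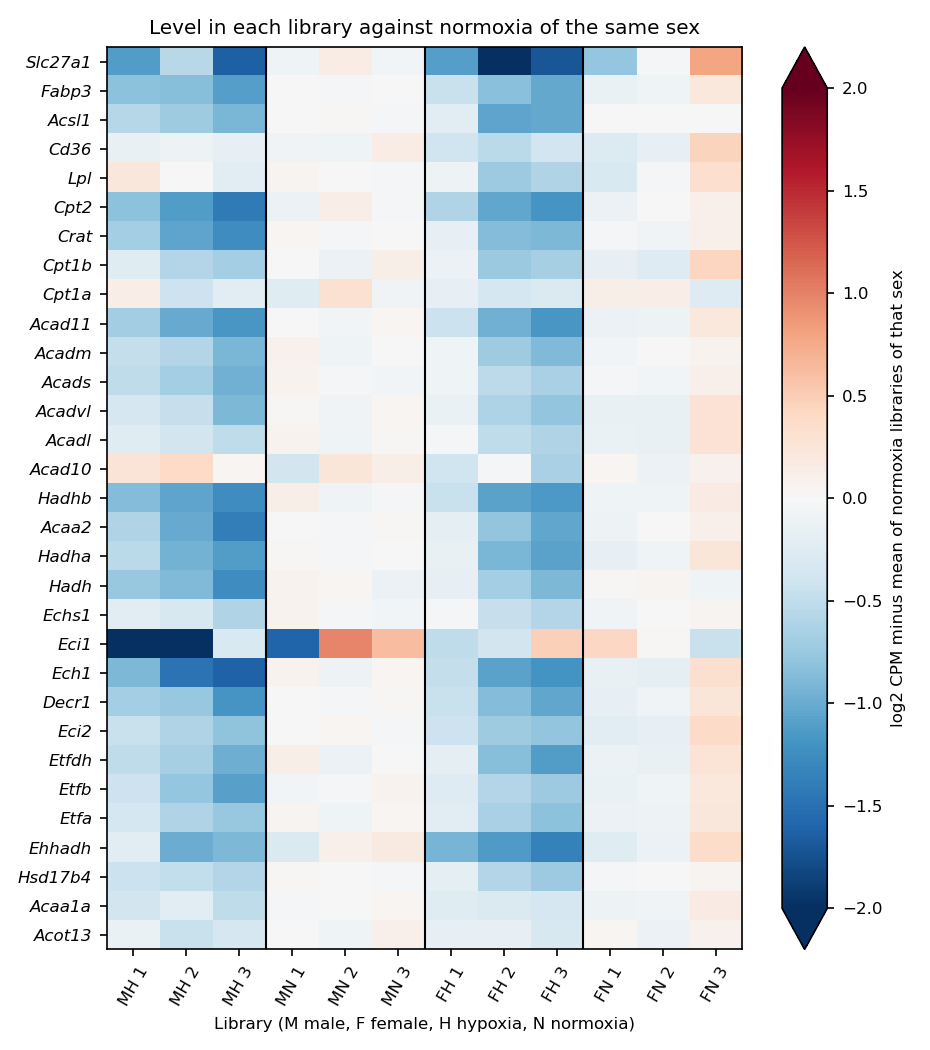
Log2 CPM of each of the 31 genes in each library minus the mean of the 3 normoxia libraries of the same sex (blue, lower; red, higher; the colour scale stops at ±2). The columns of male hypoxia library 3 and female hypoxia libraries 2 and 3 are the deepest blue, that of female hypoxia library 1 is pale, and female normoxia library 3 is red in most rows.

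The 31 genes together took 1.84 ± 0.224% of counts in male hypoxia and 2.35 ± 0.0185% in male normoxia libraries (SD, n = 3 each). In females the shares were 1.79 ± 0.289% in hypoxia and 2.46 ± 0.286% in normoxia. Without the mitochondrially encoded genes, whose share ran from 15.8% to 23.1% in the hypoxia and from 24.5% to 29.3% in the normoxia libraries, the members' share was 2.31 ± 0.229% in male hypoxia and 3.28 ± 0.0523% in male normoxia libraries.

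Scaling changed how many genes were called but not which way most of the 31 pointed. With library totals alone the median of all genes moved to 0.20 and 21 members fell (4.58% of all genes), with a median of -0.43 and 30 of 31 values below 0. With scaling to the ventricular markers the median of all genes moved to 0.28 and 20 fell (2.74% of all genes), with a median of -0.37 and 27 of 31 values below 0. In these fits 13.3% and 8.39% of all called genes were lower, against 46.1% with TMM, and 4160 and 4173 genes were higher, against 2100. Cpt2, Hadhb, Hadh, Fabp3, Ech1, Decr1, Acad11, Slc27a1, Ehhadh, Hsd17b4 and Crat passed as lower in the averaged comparison under all 24 alternatives tried, and the other 15 lost the call in at least 1. Without male hypoxia libraries 2 and 3 fewer members passed. The median log2 fold change of the 31 genes was then -0.55, against -0.02 over all genes. Without female normoxia library 3 as well, the members' median was -0.48, against -0.02 over all genes. In those fits male hypoxia rests on 1 library that is assumed to vary like the other groups.

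In males alone 18 of the 31 genes (58.1%) fell, against 7.10% of all genes, and 0 were higher, against 8.47%. The median log2 fold change was -0.70. DESeq2 called 24 lower (9.94% of all genes) and limma voom 20 (7.22%). Hadh was at 347, 317 and 249 CPM in male hypoxia and 616, 603 and 542 CPM in male normoxia libraries, a change of -0.95 ± 0.18 (SE, adjusted p = 0.00767). Ech1 changed by -1.30 ± 0.23 (SE, adjusted p = 0.00633), the largest drop among those that passed in males, and Cpt2 by -1.10 ± 0.17 (SE, adjusted p = 0.00386). The members' count by edgeR was 10 without male hypoxia library 2 (2.7% of all genes) and 9 without male hypoxia library 3 (2.51%). It was 11 without male normoxia library 1, 2 or 3 (2.98%, 3.99% and 3.34%). Leaving out male hypoxia libraries 2 and 3 together leaves 1 male hypoxia library. The median log2 fold change of the 31 genes was then -0.48.

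In females alone 10 of the 31 genes (32.3%) fell, against 2.02% of all genes, and 0 were higher, against 3.97%. The median log2 fold change was -0.54. They were Slc27a1, Ehhadh, Cpt2, Ech1, Hadhb, Acad11, Decr1, Fabp3, Eci2 and Hsd17b4, with log2 fold changes of -1.71 ± 0.38, -1.17 ± 0.24, -0.92 ± 0.17, -0.90 ± 0.23, -0.86 ± 0.18, -0.83 ± 0.18, -0.77 ± 0.17, -0.76 ± 0.15, -0.66 ± 0.17 and -0.49 ± 0.12 (SE) in that order. DESeq2 called 20 lower (4.63% of all genes) and limma voom 11 (1.74%). The count rested on single libraries, as did the share of all genes that was lower, given in brackets. The members' count was 0 without female hypoxia library 2 (0.0909%), female hypoxia library 3 (0.0979%) or female normoxia library 2 (0.329%). It was 4 without female normoxia library 1 (0.544%) or 3 (2.48%), and 25 without female hypoxia library 1 (5.76%). The members' count was also 0 when the 6 female libraries were fitted alone (0.105% of all genes). For the 6 male libraries alone 23 members passed (9.63%).

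The difference between the effect in females and that in males passed edgeR's test for 0 of the 31 genes and for 0.00716% of all genes. The members' adjusted p in that comparison was 0.733 or more, and 0 passed at an unadjusted p under 0.05, by DESeq2 or by limma voom. Examples of the differences were those of Lpl (-0.49 ± 0.27), Slc27a1 (-0.66 ± 0.52), Ehhadh (-0.48 ± 0.33) and Hadh (0.40 ± 0.25), as female effect minus male effect in log2 with SE. Errors of this size do not show that the effects in the sexes were alike. Females and males also did not differ past the threshold in hypoxia (lowest adjusted p = 0.537; 0.150% of all genes passed) or in normoxia (lowest adjusted p = 0.738; 0.0716% of all genes). In both of these comparisons 0 members passed at an unadjusted p under 0.05, by DESeq2 or by limma voom. Hadh, as an example, was at 427, 299 and 256 CPM in female hypoxia and 347, 317 and 249 CPM in male hypoxia libraries.

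A wider list of 57 other genes of fatty acid handling, of which 55 were tested, had 26 lower and 6 higher in the averaged comparison (12.9% and 15.0% of all genes) and a median log2 fold change of -0.40. The 6 genes with the smallest adjusted p were Acad12, Hsdl2, Nudt7, Hibch, Mgll and Acot7. Acad12, a further acyl-CoA dehydrogenase, was at 69.7, 55.1 and 55.6 CPM in male hypoxia and 129, 119 and 114 CPM in male normoxia libraries, and at 85.3, 49.0 and 53.3 CPM in female hypoxia and 108, 106 and 148 CPM in female normoxia libraries, a change of -0.98 ± 0.14 (SE, adjusted p = 0.00115). Hsdl2, a peroxisomal dehydrogenase-like protein, changed by -0.95 ± 0.15 (SE, adjusted p = 0.00138), and Nudt7, which degrades peroxisomal CoA, by -0.62 ± 0.10 (SE, adjusted p = 0.00148). Hibch, an enzyme of valine breakdown, changed by -0.53 ± 0.08 (SE, adjusted p = 0.00167), and Acot7, a cytosolic thioesterase, by -0.46 ± 0.08 (SE, adjusted p = 0.00317). Mgll, the lipase that takes the last fatty acid from monoacylglycerol, moved the other way. It had 250.4, 196 and 215 CPM in male hypoxia and 166, 196 and 175 CPM in male normoxia libraries, which overlapped, and 292, 358 and 373 CPM in female hypoxia and 192, 177 and 226 CPM in female normoxia libraries, which did not. Its averaged change was 0.54 ± 0.10 (SE, adjusted p = 0.00282).

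Of 22 genes that regulate the pathway or respond to it, 7 were lower and 2 higher in the averaged comparison (12.9% and 15.0% of all genes). Their log2 fold changes ran from -1.60 to 0.72, with a median of -0.27 and 5 above 0. The genes named here are the 6 with the smallest adjusted p, and those were all lower. Prkab2, a subunit of the energy sensor AMPK, had the smallest adjusted p and changed by -0.38 ± 0.07 (SE, adjusted p = 0.00298). Esrrg, a nuclear receptor of oxidative metabolism, changed by -0.54 ± 0.10 (SE, adjusted p = 0.00376). Ucp3, a mitochondrial carrier of muscle, had the widest change of the 6 genes named by the rule. It was at 36.5, 11.3 and 9.64 CPM in male hypoxia and 45.5, 67.3 and 32.1 CPM in male normoxia libraries, and at 19.1, 12.8 and 8.48 CPM in female hypoxia and 42.6, 51.5 and 50.1 CPM in female normoxia libraries, with male hypoxia library 1 inside the male normoxia range, and changed by -1.60 ± 0.33 (SE, adjusted p = 0.0056). Ppara, the receptor itself, was at 15.8, 13.0 and 8.98 CPM in male hypoxia and 26.7, 25.5 and 20.2 CPM in male normoxia libraries, and at 23.1, 6.90 and 7.29 CPM in female hypoxia and 29.0, 30.1 and 28.3 CPM in female normoxia libraries. Female hypoxia library 1 was again the nearest to normoxia. Sirt3, a mitochondrial deacetylase, changed by -0.39 ± 0.09 (SE, adjusted p = 0.0116), and Rxrg, a partner of nuclear receptors, by -0.66 ± 0.16 (SE, adjusted p = 0.0125).

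Most of the 31 genes varied together across libraries. Pearson's correlation of log2 CPM with Cpt2 over the 12 libraries was 0.981 for Acad11, 0.980 for Fabp3, 0.979 for Decr1, 0.972 for Ech1 and 0.971 for Hadhb. It was lowest for Cd36 (0.607), Lpl (0.567), Cpt1a (0.533), Eci1 (0.389) and Acad10 (0.168), the 5 members that did not pass. These values describe libraries that share their groups, depth and scaling, and carry no test. Outside the 31 genes, those most like Cpt2 by the same measure were Mtg2, a mitochondrial ribosome GTPase (0.981), Smim19 (0.979), the mitochondrial carrier gene Slc25a34 (0.979), the mitochondrial chaperonin gene Hspd1 (0.976) and Hrc, a calcium-binding protein of the sarcoplasmic reticulum (0.973). Hspd1 was at 241, 226 and 201 CPM in male hypoxia and 416, 374 and 425 CPM in male normoxia libraries.

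Promoter windows from RefSeq (GRCm38.p6, 250 bases before to 50 after the annotated start) were found for 24 of the 31 genes and searched on both strands for the hexamer AGGTCA bound by nuclear receptors such as PPAR-alpha. It was present in the windows of 5 of the 24 genes (Acadm, Acadvl, Cd36, Cpt1a and Echs1), against 18.1% of all genes with a window. A direct repeat of it spaced by 1 base was in 0 of the 24 and in 0.0481% of all genes, and the extended site TNAAGGTCA, which contains the hexamer, in 0 and in 1.43%. A match is a description of letters in these short windows. For a member that fell and one that did not pass, Acadvl and Cpt1a, the 250 bases before the start are printed to show where the hexamer lies, in capitals. It begins 87 bases before the start of Acadvl, chr11:70015429-70015678 (-), and 94 bases before that of Cpt1a, chr19:3323051-3323300 (+), where it lies on the opposite strand.
Acadvl: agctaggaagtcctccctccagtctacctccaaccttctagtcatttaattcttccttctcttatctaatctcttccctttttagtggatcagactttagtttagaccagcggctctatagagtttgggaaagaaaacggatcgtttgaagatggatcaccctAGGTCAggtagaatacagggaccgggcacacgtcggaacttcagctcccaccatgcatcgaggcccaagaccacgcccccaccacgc
Cpt1a: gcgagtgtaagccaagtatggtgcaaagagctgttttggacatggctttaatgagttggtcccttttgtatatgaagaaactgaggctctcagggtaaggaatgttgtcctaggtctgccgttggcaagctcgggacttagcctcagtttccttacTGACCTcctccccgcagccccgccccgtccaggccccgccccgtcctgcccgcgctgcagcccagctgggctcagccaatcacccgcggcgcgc

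The deposited average transcript length, which depends on the isoforms assigned to a gene, was the same in every library for 7 of the 31 genes, and its spread was under 5% for 16. The widest spread was that of Acad10, at 66.3% of its mean length. Acadm was the only gene whose lengths lay apart in both sexes, at 1736 ± 6.86 bases in male hypoxia and 1764 ± 8.59 bases in male normoxia libraries, and 1729 ± 2.63 bases in female hypoxia and 1758 ± 6.86 bases in female normoxia libraries (SD, n = 3 each). In males alone Ech1 was shorter (583 ± 26.2 bases in hypoxia and 625 ± 16.9 in normoxia) and Eci2 longer (1019 ± 45.1 bases in hypoxia and 961 ± 24.3 in normoxia). With these lengths as offsets 24 members fell in the averaged comparison (9.09% of all genes), Acadl and Cpt1b losing the call.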

How the data were processed

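The 12 libraries were 3 each of male hypoxia, male normoxia, female hypoxia and female normoxia ventricles, grouped by their labels. RNA was extracted with a miRNeasy kit and strand-specific mRNA libraries were prepared, per the labels' protocols. FastQC, Salmon and GRCm39 are named in the submitters' processing notes; versions, annotation and strand setting are not given in the sources used here. The deposited table holds, per the file headers, an estimated count, an abundance in TPM and an average transcript length (its other measure, in bases) per gene and library; 0 value columns belonged to no sample. Symbols were matched by Ensembl identifier for 99.3% of genes, and 269 had none. The authors' estimated counts were rounded, genes with low counts were removed with filterByExpr on the 4 groups (13960 of 39210 kept), and library sizes were corrected by TMM. edgeR 4.0.16 in R 4.3.3 fitted group means to all 12 libraries (8 residual degrees of freedom), with two-sided quasi-likelihood tests of 6 contrasts and Benjamini-Hochberg adjustment over all genes tested. Genes with an adjusted p under 0.05 passed. Adjusted p-values are edgeR's unless another tool is named. Standard errors are the absolute log2 fold change over the root of F. Levels are CPM of the corrected library size, and log2 CPM had a prior count of 2. Deposited TPM carries no TMM correction and was used for levels between genes. The steps were tested on simulated counts. Alternatives used DESeq2 1.42.0, limma voom 3.58.1, other scalings and filters, length offsets, a replicate block and left-out libraries. Scaling by totals alone and to ventricular markers, and counts of non-overlapping groups in TPM, were added after the data were seen. The members, lists and alternatives were chosen with earlier results of these data known. Genes named beyond the members were the 6 with the smallest averaged adjusted p in each of 2 lists and the 5 outside the members with the highest correlation with Cpt2. Precision is limited by 3 libraries a group. Libraries of a group differed by more than sampling noise, so none was merged. Promoter windows are RefSeq's, on GRCm38.p6, another build than GRCm39, and no coordinates were converted.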

Additional observations from a re-analysis of the deposited data

How the results depend on the processing

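The averaged comparison called 26 members under TMM and between 20 and 27 under 22 of 24 alternatives, with 22 to 26 (and 2685 to 4635 genes in all) when 1 library was left out. It called 13 without male hypoxia replicates 2 and 3 and 15 without female normoxia replicate 3 as well, where the total of 3896 genes was 1295 and 2329. Those 2 fits gave 0 and 0 members and 66 and 176 genes in males (18 members and 2174 genes with all libraries), and 457 genes without male hypoxia replicates 2 and 3, and 4 members with all 3 libraries left out, in females (836 genes and 10 members with all libraries). Leaving out 1 library gave 9 to 21 members and 877 to 3036 genes in males, and 0 to 25 members and 55 to 2081 genes in females. Length offsets gave 1265 genes in males and 362 in females, totals alone 3594 genes in males, DESeq2 20 members and 1693 genes in females, and the female libraries alone 0 members and 40 genes. Without male hypoxia replicate 3, 1 member was higher in hypoxic females than in hypoxic males, and the share of all genes was not counted there. The male hypoxia libraries left in that fit are those listed at 0 for Eci1. With all libraries Eci1 had a log2 value of 2.44 ± 1.16 (SE) in that comparison and did not pass. The direction of some members that did not pass, and of Acot13, reversed. Averaged, scaling to ventricular markers gave 0.052 for Cpt1a, 0.22 for Acad10, 0.024 for Lpl and 0.020 for Acot13, totals alone gave 0.14 for Acad10, and leaving out female hypoxia replicate 3 gave 0.0052 for Acad10 (-0.16 to 0.0052 with 1 library left out). In males Cpt1a was 0.12 without male hypoxia replicates 2 and 3, 0.12 without female normoxia replicate 3 as well, 0.068 with totals alone and 0.12 with ventricular scaling, which gave 0.17 for Cd36 (0.12 with totals alone), and -0.33 to 0.12 with libraries left out. Lpl in males was -0.11 without male hypoxia replicate 1 and -0.0042 without male normoxia replicate 3, and up to 0.23 in the other fits with libraries left out. In females Eci1 was 0.081, 0.023 and 0.13 without female hypoxia replicate 1, female hypoxia replicate 2 or female normoxia replicate 1 (-0.47 without female hypoxia replicate 3), and 0.062 and 0.20 with totals alone and ventricular scaling, which gave 0.046 for Acot13. The cause of these changes was not tested. With the replicate number as a block 26 members fell on average (13.4% of all genes), 19 in males (7.63%) and 10 in females (1.94%). Of 18 same-numbered pairs 1 had a correlation of deviations over 0.1 (range -0.045 to 0.186), while 9 of 12 libraries correlated best with their own number. The labels do not say what samples with the same number share, and whether they were handled together was not tested. With 3 libraries a group, a change near the spread between libraries was not detectable.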

Other observations

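Within the wider list of fatty acid genes, 6 of the 55 tested were higher in hypoxia, against 15.0% of all genes. Beside Mgll they were the fatty acid binding protein genes Fabp5 (0.85 ± 0.16 (SE, adjusted p = 0.00349)) and Fabp4 (0.56 ± 0.15 (SE, adjusted p = 0.0155)), the acyl-CoA synthetase genes Acsl5 (0.48 ± 0.10 (SE, adjusted p = 0.00646)) and Acsl4 (0.31 ± 0.08 (SE, adjusted p = 0.0142)), and Gpihbp1 (0.55 ± 0.12 (SE, adjusted p = 0.00788)), which holds lipoprotein lipase on capillary endothelium. These 5 names were chosen after their values were seen. Fabp4 and Gpihbp1 are textbook genes of capillary endothelium, and 10 of 14 endothelial markers, a list that holds Gpihbp1, were higher in the same comparison; the part of that shift in these values was not tested. Lpl, the enzyme that Gpihbp1 holds, changed by -0.23 ± 0.14 and did not pass.

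The 26 genes of that list that were lower included 4 that were also picked after their values were seen. Slc25a20, the carnitine-acylcarnitine carrier that works between Cpt1b and Cpt2, changed by -0.70 ± 0.15 (SE, adjusted p = 0.00568), and Slc22a5, the carnitine transporter of the cell membrane, by -0.40 ± 0.08 (SE, adjusted p = 0.00605). Decr2, the peroxisomal counterpart of Decr1, changed by -0.80 ± 0.15 (SE, adjusted p = 0.00317), and Mlycd, which degrades the inhibitor of the carnitine shuttle, malonyl-CoA, by -0.83 ± 0.17 (SE, adjusted p = 0.00449).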
